A study of Triticum aestivum with 6 samples.

Results

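Germins are cupin-fold glycoproteins of the plant cell wall. The true germins of wheat and barley are oxalate oxidases, which convert oxalate and oxygen into carbon dioxide and hydrogen peroxide, and germin-like proteins are their more numerous relatives. In the deposited gene table, 196 of 83219 wheat genes belonged to this family by the first recommended or submitted protein name attached to each gene. Of these, 171 were named as germin-like proteins and 25 as oxalate oxidases, and both groups are described apart. Each gene was chosen by its protein name and by no expression value. The family itself was selected on calls and fold changes of the same nitrate comparison, so the counts of members below describe it and support nothing further.

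Hydrogen peroxide made in the cell wall serves in cross-linking of wall polymers and in defence. Wheat germin GF-2.8 was characterized in germinating embryos, and oxalate oxidases of wheat and barley are also known from roots and from leaves attacked by powdery mildew. Most germin-like proteins are not known to oxidise oxalate, and some of them act as superoxide dismutases. The germin-like names here are those of rice proteins, in which the leading digit is the rice chromosome. In rice, a cluster of such genes on chromosome 8 contributes to resistance against blast and sheath blight. Of the 25 oxalate oxidases, 14 were matched to the wheat protein GF-2.8 and 11 to barley oxalate oxidase 2, while the germin-like proteins carried 20 names.

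RNA-seq was made from roots of the wild-type wheat line JW1. Seedlings germinated for 3 days, lost the endosperm, had 2 mM nitrate for 3 days and were starved of nitrogen for 2 days. For the last 3 h, the 3 samples of 0N+ABA received 2 mM potassium chloride and the 3 samples of 2N+ABA received 2 mM potassium nitrate. Both groups carried 5 µM abscisic acid (ABA), a stress hormone, so the comparison asks what nitrate changes in its presence, and nitrate and chloride effects cannot be told apart. Whether the replicates were grown as separate cultures is not stated, so p-values reflect only the spread seen among them, which may be technical.

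The libraries held 16907317 to 17735564 estimated counts. One label calls the material leaf, against root in the others. Summed over 157 genes, green-leaf markers reached 182 to 345 TPM (a transcript level per unit of length, scaled to the same total in every library). The 7 genes for Casparian strip membrane proteins, markers of the root endodermis, of which 6 were tested, summed to 117 to 198 TPM. No leaf library was at hand for comparison, and the name root follows the other labels. On the first principal component of all tested genes, 0N+ABA replicate 2 lay at -1.28, between the other 0N+ABA libraries (-63.8 and -74.1) and the 2N+ABA libraries (38.8 to 59.9). On the second component (25.1% of the variance, against 42.1% for the first), it lay at -79. There 2N+ABA replicate 3 was next at -17.7, and the other libraries lay at 12.5 to 47.9. Over all tested genes, deviations of 0N+ABA replicate 2 and 2N+ABA replicate 3 from their group means correlated at 0.343, the highest of all pairs across groups. Calls among the family that were gained or lost without 0N+ABA replicate 2 are given beside the results. In these bulk samples, fewer cells of a type and less RNA per cell cannot be told apart.

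Nitrate was tested gene by gene with edgeR's quasi-likelihood test over 53862 genes, of which 135 were family members. A gene is said to rise or fall where its Benjamini-Hochberg adjusted p over all tested genes was under 0.05. Levels are TPM as deposited, and fold changes are 2N+ABA over 0N+ABA from the counts.

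Oxalate oxidases tended to be lower with nitrate, and those that fell lay side by side on chromosome 4A. Of 25 genes, all had a count and 22 were tested. By edgeR, 3 fell, where 0.579% of all tested genes fell and 2.25% changed in either direction. None rose (0 by DESeq2 and 0 by limma-voom), where 1.67% of all tested genes rose. At an unadjusted p under 0.05, 9 members were lower and 0 higher, against 7.77% and 8.62% of all tested genes. Their median log2 fold change was -0.41, against -0.02 over all tested genes. In 19 of 22 it was below 0, as in 28186 of all 53862 tested genes. In 8 members every 2N+ABA library was lower than every 0N+ABA library, as in 10.8% of all tested genes. Markers of dividing cells (A- and B-type cyclins and histone H4) were lower too, with sums of 14040, 11933 and 10763 TPM in 0N+ABA and 9750, 10370 and 9674 TPM in 2N+ABA. Of 148 such genes tested, 135 were below 0, 33 were lower and 0 higher without adjustment, and 1 fell. A list of root markers held nicotianamine synthases, high-affinity nitrate transporters and Casparian strip membrane proteins. It had 24 rises among 41 tested genes, and its sum went from 543 ± 67.1 to 3720 ± 787 TPM (SD, n = 3). Of its 6 tested Casparian strip genes, 0 rose or fell. The part of cell composition in the oxalate oxidase values was not tested.

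The oxalate oxidase genes stood in 5 arrays, here meaning members on 1 chromosome whose gene ID numbers differ by at most 1000 from the next. The arrays held 10 genes on 4D, 5 on 4B, 4 and 3 on 4A and 3 on 3B. Gene IDs of wheat run along the chromosome, so an array is a set of near neighbours in the annotation. Genes of an array are often similar in sequence, and how the authors' counting divided reads among copies is uncertain. Of the non-zero counts of oxalate oxidases 67.1% were not whole numbers, against 52.3% over all genes.

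The 3 genes that fell form the smaller 4A array and are matched to GF-2.8. TraesCS4A02G279200 was at 57.9, 54.3 and 51.5 TPM in 0N+ABA replicates 1, 2 and 3 and at 16.6, 11.2 and 17.01 TPM in the 2N+ABA replicates. The groups lay far apart, with means of 54.6 ± 3.25 and 14.9 ± 3.25 TPM (SD, n = 3). The gene was 3.52-fold lower with nitrate (log2 fold change -1.82, SE 0.145, edgeR adjusted p = 0.000746).

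Its neighbour TraesCS4A02G279100 was at 40.6, 39.9 and 30.7 TPM without nitrate and at 12.5, 11.6 and 9.13 TPM with it. All 2N+ABA values were again below all 0N+ABA values, and the gene was 3.21-fold lower (log2 fold change -1.68, SE 0.175, edgeR adjusted p = 0.00277). Both genes also fell when any 1 library was left out, with adjusted p up to 0.00912 for TraesCS4A02G279200 and 0.0237 for TraesCS4A02G279100. The third gene of the array, TraesCS4A02G279300, was much less abundant, with 6.42, 8.96 and 4.51 TPM in 0N+ABA and 2.21, 1.23 and 1.39 TPM in 2N+ABA. It was 4.0-fold lower (log2 fold change -2.0, SE 0.346, edgeR adjusted p = 0.0267). This gene no longer passed when 0N+ABA replicate 1 was left out (adjusted p = 0.0865), nor when any one of the 2N+ABA libraries was (adjusted p = 0.0805, 0.0999 and 0.116 for replicates 1 to 3).

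Summed over its genes, the 3-gene array held 105, 103 and 86.6 TPM in the 0N+ABA replicates and 31.4, 24.0 and 27.5 TPM in the 2N+ABA replicates. Its share of all oxalate oxidase TPM was 11.1% to 13.1% without nitrate and 4.46% to 4.85% with it. All 25 oxalate oxidases together held 857, 929 and 660 TPM without nitrate and 646, 538 and 604 TPM with it, and these groups did not overlap. Without the 3-gene array the sums were 752, 825 and 574 TPM against 615, 514 and 576 TPM, and the groups overlapped. Most of the difference between the group means of the total thus lay in genes that did not pass the test.

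The other 4A array followed in the same direction without passing the test. Its most abundant gene, TraesCS4A02G181900, matched to GF-2.8, was at 29.2, 33.1 and 18.2 TPM in 0N+ABA and at 13.9, 7.51 and 14.2 TPM in 2N+ABA, with no overlap (log2 fold change -1.13, SE 0.274, edgeR adjusted p = 0.0807). DESeq2 called this gene (adjusted p = 0.00544). TraesCS4A02G181800, also matched to GF-2.8, had a log2 fold change of -0.85 (adjusted p = 0.198). The array sum was 43.6 ± 13.0 TPM in 0N+ABA and 21.4 ± 2.55 TPM in 2N+ABA (SD, n = 3).

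On 4B and 3B the array sums were also lower with nitrate, at 0.674 and 0.720 of the 0N+ABA mean, against 0.490 for the 4-gene array of 4A. The 4B array held 142 ± 19.6 TPM in 0N+ABA and 95.5 ± 10.9 TPM in 2N+ABA (SD, n = 3), and in it TraesCS4B02G033500, matched to oxalate oxidase 2, had a log2 fold change of -0.89 (adjusted p = 0.129). TraesCS4B02G033100 had a log2 fold change of -0.47 (adjusted p = 0.245). The single most abundant oxalate oxidase of all was TraesCS3B02G282400, matched to the barley enzyme, with 156, 162 and 115 TPM in 0N+ABA and 99.3, 89.4 and 102 TPM in 2N+ABA. Its groups did not overlap, but it did not pass edgeR's test (log2 fold change -0.52, SE 0.144, adjusted p = 0.111), while DESeq2 placed it just under the threshold (adjusted p = 0.0499).

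The 4D array, the largest, had the ratio of group means nearest to 1, at 0.918. Its sum was 358, 405 and 276 TPM in 0N+ABA and 347, 284 and 322 TPM in 2N+ABA, so the groups overlapped. TraesCS4D02G031700 and TraesCS4D02G031800, matched to GF-2.8, had means of 94.3 ± 20.1 and 96.8 ± 20.1 TPM without nitrate and 86.8 ± 11.5 and 83.9 ± 13.2 TPM with it (SD, n = 3; edgeR adjusted p = 0.885 and 0.714). TraesCS4D02G032200 had a log2 fold change of -0.31 (adjusted p = 0.445). Log2 fold changes in the 8 tested genes of the array ran from -0.31 to 0.45, and one gene, TraesCS4D02G031900, rose without 0N+ABA replicate 2 (log2 fold change 0.53, adjusted p = 0.042). The difference between arrays was not tested.

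**Figure D1:**
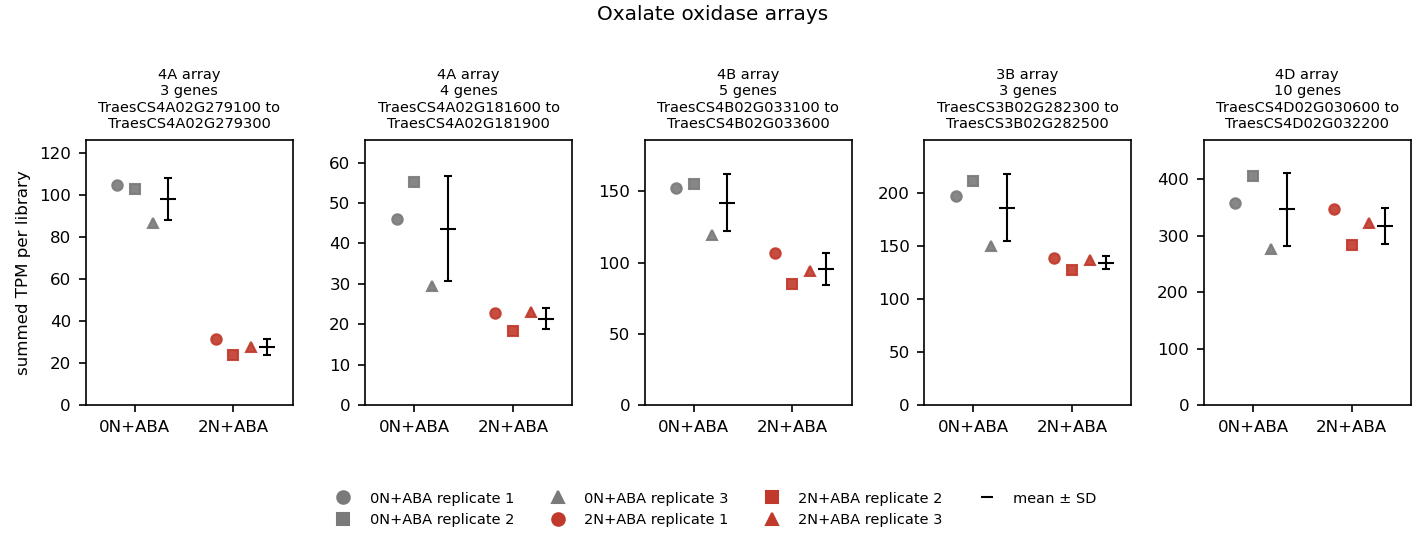
Summed TPM (vertical axis, from 0) of the genes of each oxalate oxidase array in each library, with 0N+ABA in grey and 2N+ABA in red, marker shape for the replicate number and the mean ± SD beside each group. The 3-gene array of 4A goes from between 86.6 and 105 TPM to between 24.0 and 31.4 TPM, while the groups overlap in the 4D array.

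The copies were also tested as sums. When counts of all 14 GF-2.8 genes of chromosome group 4 were summed to 1 feature before the fit, that feature had a log2 fold change of -0.41 (SE 0.151, edgeR adjusted p = 0.222). The 8 oxalate oxidase 2 genes of that group gave -0.31 (adjusted p = 0.333), and the 3 on 3B gave -0.41 (adjusted p = 0.189). No sum passed the test, so the fall was called for the 3 genes and not for the GF-2.8 copies as a sum.

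Among germin-like proteins, few genes differed with nitrate beyond the spread of the replicates. Of 171 genes, 17 had no count in any library and 113 were tested. By edgeR, 3 rose, against 1.67% of all tested genes. None fell (0 by DESeq2 and limma-voom), where 0.579% of all tested genes fell. With no adjustment, 8 had a p under 0.05 and were higher and 9 were lower, where 8.62% and 7.77% of all tested genes were, so these counts lie near the background. The median log2 fold change was -0.11, and 70 of 113 were below 0, where 28186 of all 53862 tested genes were. Groups did not overlap in 7 members that were higher and in 6 that were lower with nitrate, against 11.3% and 10.8% of all tested genes.

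**Figure D2:**
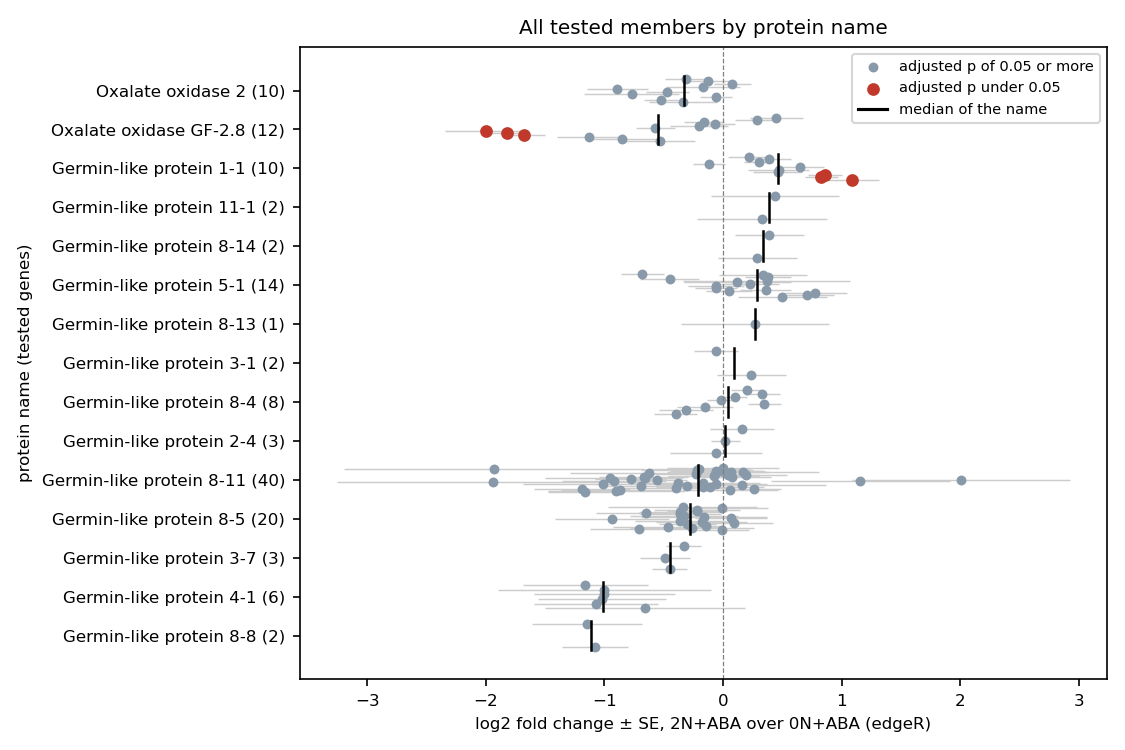
Log2 fold change of 2N+ABA over 0N+ABA (horizontal axis) with its standard error for all 135 tested members, in rows by protein name with the number of tested genes. Red points passed edgeR's test and black bars are the medians of a name: the red points are 3 oxalate oxidases GF-2.8 below 0 and 3 germin-like proteins 1-1 above 0.

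All 3 that rose are matched to germin-like protein 1-1 and stand in 1 array of 4 genes on chromosome 6A. TraesCS6A02G382900 was at 41.3, 40.6 and 32.2 TPM in 0N+ABA and at 65.8, 55.5 and 74.8 TPM in 2N+ABA. The groups did not overlap (log2 fold change 0.83, SE 0.137, edgeR adjusted p = 0.0226). TraesCS6A02G383000 was at 23.8, 28.6 and 22.8 TPM and then at 41.1, 38.1 and 52.9 TPM (log2 fold change 0.86, SE 0.145, edgeR adjusted p = 0.0244).

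The third, TraesCS6A02G382200, was the most abundant of them, with 49.4, 71.6 and 39.1 TPM in 0N+ABA and 108, 89.6 and 131 TPM in 2N+ABA. It had the largest change of these genes and lay just under the threshold (log2 fold change 1.09, SE 0.223, edgeR adjusted p = 0.0491). These calls depended on which libraries were kept and on the scale, since limma on log2(TPM + 1) called 0 of the 3. They held for all 3 genes without 0N+ABA replicate 2 (adjusted p = 0.00905, 0.00563 and 0.00263 in the order above), and without 2N+ABA replicate 2 only TraesCS6A02G382900 passed (adjusted p = 0.0444). With any of the other 4 libraries left out, 0 germin-like proteins 1-1 rose by edgeR, with adjusted p between 0.0667 and 0.17 for the 3 genes. Calls over all genes also dropped in those 4 fits, from 1210 to between 283 and 434. Across all fits with 1 library left out, log2 fold changes ran from 0.72 to 0.91, from 0.73 to 0.98 and from 0.90 to 1.37 in the same order.

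The germin-like 1-1 arrays of 6B and 6D had smaller fitted changes, and none of their genes passed the test by edgeR, DESeq2 or limma-voom. The 6A array sum went from 117 ± 24.0 to 220 ± 38.2 TPM, the 6B sum from 161 ± 15.9 to 190 ± 50.3 TPM and the 6D sum from 133 ± 16.4 to 162 ± 32.3 TPM (SD, n = 3). On 6D the groups did not overlap in TraesCS6D02G367000, with a log2 fold change of 0.3 (edgeR adjusted p = 0.266). In TraesCS6B02G422100 the log2 fold change was -0.12 (adjusted p = 0.731). TraesCS6B02G422000 reached 0.65 (adjusted p = 0.158) and rose without 0N+ABA replicate 2 (adjusted p = 0.0413). The counts of all 15 genes on chromosome group 6, summed to 1 feature, gave a log2 fold change of 0.49 (SE 0.159, edgeR adjusted p = 0.168). The difference between the 3 chromosomes was not tested.

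**Figure D3:**
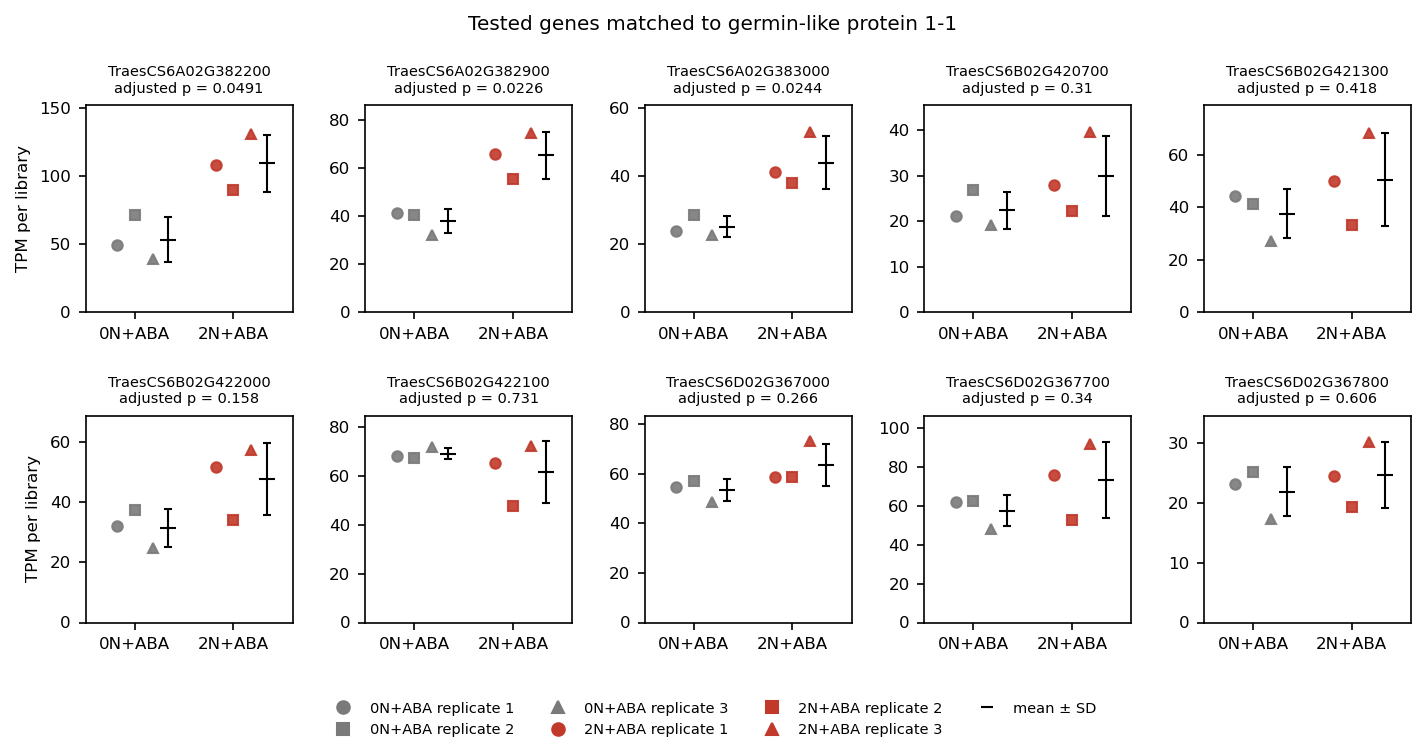
TPM per library (vertical axis, from 0) of the 10 tested genes matched to germin-like protein 1-1, 3 on chromosome 6A, 4 on 6B and 3 on 6D, with the mean ± SD of each group and the edgeR adjusted p. The groups lie apart in the 3 genes of 6A and in TraesCS6D02G367000, and TraesCS6B02G422100 has a log2 fold change of -0.12.

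The most abundant members by far were matched to germin-like protein 8-4, and the sum over that name varied little. The 8 genes of that name made up 28.4% to 50.5% of all germin-like TPM in a library, and their sum was 2660 ± 282 TPM in 0N+ABA and 2820 ± 47.1 TPM in 2N+ABA (SD, n = 3). TraesCS7D02G383300 came first, with 521, 642 and 584 TPM without nitrate and 621, 695 and 618 TPM with it. It was followed by TraesCS5B02G048500 with 455, 618 and 511 TPM and then 635, 653 and 655 TPM. The neighbours in this order overlapped in their values. Of the non-zero counts of the 8-4 genes 97.9% were not whole numbers, so the values of single genes and their order are uncertain.

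Next came TraesCS5D02G054300, with means of 460 ± 46.1 and 437 ± 47.3 TPM (SD, n = 3). TraesCS7A02G386800 had 382 ± 25.3 and 395 ± 12.6 TPM, and TraesCS7B02G289600 had 342 ± 62.5 and 414 ± 14.5 TPM. None of these 5 genes passed edgeR's test (adjusted p from 0.261 to 0.951), nor DESeq2 or limma-voom. Without 0N+ABA replicate 2, TraesCS5B02G048500 and TraesCS7B02G289600 rose by log2 fold changes of 0.49 and 0.50 (adjusted p = 0.0281 and 0.0239). The other 8-4 genes, TraesCS3B02G075600, TraesCS3B02G075700 and TraesCS5A02G044300, were less abundant, with means over all libraries of 205, 81.3 and 35.1 TPM. Their log2 fold changes were -0.40, -0.31 and -0.15 (edgeR adjusted p = 0.323, 0.561 and 0.815).

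In the 6 genes matched to germin-like protein 4-1, libraries of the same group differed more than the groups did. They lie in pairs on 2A, 2B and 2D, and their sum was 2003, 307 and 994 TPM in 0N+ABA and 620, 721 and 234 TPM in 2N+ABA. 0N+ABA replicate 2 and 2N+ABA replicate 3 were the low libraries, and the highest value was 8.55-fold above the lowest. Log2 fold changes of the 6 genes ran from -1.16 to -0.66, with adjusted p from 0.326 to 0.763. Without 0N+ABA replicate 2, TraesCS2A02G459900 and TraesCS2D02G460200 fell (log2 fold change -1.48 and -1.59, adjusted p = 0.0293 and 0.0139).

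The names 8-5 and 8-11, which make up the large arrays of 4B (16 genes) and 5A (17 genes) and most of the 32 members with no assigned chromosome, showed the same libraries low. The 22 genes named 8-5 summed to 1388, 656 and 1097 TPM in 0N+ABA and to 1025, 945 and 600 TPM in 2N+ABA. The 47 genes named 8-11 summed to 1851, 1048 and 1244 TPM and to 1367, 1254 and 770 TPM. Of the 8-5 genes 20 were tested and of the 8-11 genes 40, and 0 rose or fell by edgeR, DESeq2 or limma-voom (of the 8-11 genes 4 were lower with an unadjusted p under 0.05, of the 8-5 genes 0, and 0 of either name higher). Without 0N+ABA replicate 2, 2 genes named 8-5 fell, TraesCS4B02G377100 and TraesCS5A02G544500 (log2 fold change -1.06 and -1.31, edgeR adjusted p = 0.0455 and 0.0473). Of the 8-11 genes 1 then rose and 4 fell, among them TraesCS5A02G544521 (-1.26, adjusted p = 0.0447). Sums of Casparian strip membrane protein genes were 117, 198 and 118 TPM in 0N+ABA and 158, 191 and 188 TPM in 2N+ABA. Sums of 88 xylem marker genes were 772, 1106 and 892 TPM and 952, 959 and 906 TPM. The part of cell composition in the low libraries was not tested.

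**Figure D4:**
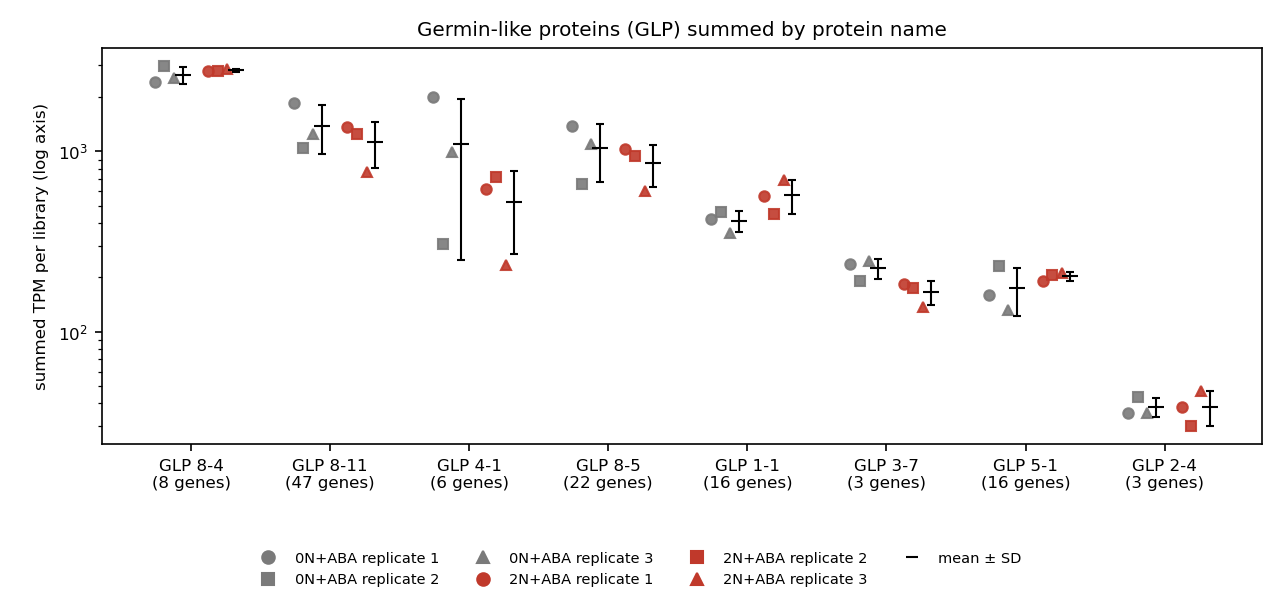
Summed TPM per library on a log axis for the 8 germin-like protein (GLP) names with at least 3 tested genes, with the mean ± SD beside each group. GLP 8-4 is the highest in every library, and GLP 4-1 spans 234 to 2003 TPM with 0N+ABA replicate 2 and 2N+ABA replicate 3 at the bottom.

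A small part of the 8-11 genes had another order of libraries. The pair on 7B summed to 46.5, 138 and 58.6 TPM in 0N+ABA and to 48.0, 47.5 and 46.3 TPM in 2N+ABA, and the pair on 7A to 56.7, 122 and 70.2 TPM and to 57.0, 47.7 and 50.9 TPM. In both, 0N+ABA replicate 2 was the single high library. On 3A, by contrast, an array of 3 genes named 8-8 and 8-11 summed to 15.7, 6.80 and 14.1 TPM without nitrate and to 5.67, 5.50 and 4.76 TPM with it. All 3 had log2 fold changes between -1.16 and -1.08, did not pass the test on all libraries, and fell once 0N+ABA replicate 2 was left out, with adjusted p = 0.0276, 0.0374 and 0.00456 by edgeR. So did the 8-11 genes TraesCS3D02G010900 and TraesCS3D02G011100 on 3D (log2 fold change -1.38 and -1.30, adjusted p = 0.0168 and 0.0196), which had -0.90 and -0.87 over all libraries (adjusted p = 0.495 and 0.443).

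The largest fitted changes among germin-like proteins that did not pass the test were in 3 genes named 8-11. TraesCS5A02G545400 was at 0, 10.99 and 0 TPM in 0N+ABA and at 14.4, 15.7 and 13.4 TPM in 2N+ABA (log2 fold change 2.01, SE 0.920, edgeR adjusted p = 0.326). When 0N+ABA replicate 2 was left out, this gene rose with an edgeR adjusted p of 0.000669, the lowest among germin-like proteins in that fit. Both 0N+ABA libraries left were then at 0, so its fitted log2 fold change of 8.64 depends on the prior count and is no bound. TraesCS5A02G544200 was at 77.4, 10.7 and 0 TPM and at 0.09, 15.7 and 5.94 TPM (log2 fold change -1.94, adjusted p = 0.525). TraesCSU02G238600 was at 0, 11.1 and 74.1 TPM and at 7.60, 0.12 and 13.8 TPM (log2 fold change -1.93, adjusted p = 0.511). In each of these genes a 0N+ABA library at 0 stood beside another of the same group well above it.

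The 5A array also held genes with identical values. TraesCS5A02G543800 and TraesCS5A02G545250 had equal TPM of at least 5 in 4 libraries, and TraesCS5A02G543756 and TraesCS5A02G544521 in 2 libraries. Of the non-zero counts, 96.9% in the 8-5 genes and 85.6% in the 8-11 genes were not whole. Values of single genes in these arrays are therefore uncertain, and the 14 genes named 8-11 on chromosome group 5, summed to 1 feature, had a log2 fold change of -0.19 (SE 0.368, edgeR adjusted p = 0.855).

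Names 5-1 and 3-7 followed in summed level. Below them lay 8-14, with mean sums of 62.5 TPM in 0N+ABA and 78.5 TPM in 2N+ABA, and 2-4, with 38.2 and 38.4 TPM. The 16 genes named 5-1 summed to 174 ± 51.4 TPM in 0N+ABA and 202 ± 10.9 TPM in 2N+ABA (SD, n = 3), and 0 of 14 tested were called by edgeR, DESeq2 or limma-voom, with 2 higher and 1 lower where no adjustment was made. The lower one was TraesCS7D02G513400 (log2 fold change -0.68, edgeR adjusted p = 0.105), which limma on log2(TPM + 1) called as a fall (adjusted p = 0.0473). Of the 14 tested genes, TraesCS1B02G098000, TraesCS1D02G081700 and TraesCS3B02G200200 rose without 0N+ABA replicate 2 (log2 fold change 1.05, 1.22 and 0.64, edgeR adjusted p = 0.0043, 0.00111 and 0.0374). The 3 genes named 3-7, on 5A, 5B and 5D, summed to 237, 191 and 246 TPM without nitrate and to 184, 174 and 137 TPM with it. Their sums did not overlap, and their log2 fold changes of -0.49 to -0.33 did not pass the test (lowest adjusted p 0.172).

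Some names were hardly expressed in these roots. For 7 names, covering 28 genes, no gene was tested, and no gene of them exceeded a mean of 1.04 TPM. They were the germin-like proteins 1-2, 1-3, 1-4 and 9-3 and the putative germin-like proteins 2-1, 2-3 and 9-2. A count of 0 in a library allows up to 3 counts, or 0.169 to 0.183 CPM (counts scaled to library size) depending on the library, and covers counting error only. At the other end, 16 germin-like proteins and 1 oxalate oxidase had a mean over 100 TPM.

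With 0N+ABA replicate 2 left out, 10 germin-like proteins rose and 10 fell, where 5.19% and 3.19% of all genes tested in that fit rose and fell. For oxalate oxidases the numbers were then 1 and 3. With all 6 libraries, 113 germin-like proteins were tested, of which 3 rose and 0 fell. With 5 libraries in place of 6, both germin-like counts lay above the shares over all genes, also when set against all 171 germin-like proteins. Several of these genes are neighbours in an array (on 6A, 3A and 3D), so the counts are not of independent genes. Calls over all genes grew as well, from 1210 to 4607. In the same fit 5 of 6 tested Casparian strip membrane protein genes and 17 of 61 tested xylem marker genes rose, while 4 xylem markers fell. Root markers, a list that holds the same Casparian strip genes again and also nicotianamine synthases and nitrate transporters, had 30 rises among 41. Root hair markers had 3 among 10, and dividing-cell markers 5 falls among 148. The part of root cell composition in the added calls was not tested.

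Other genes of oxalate and peroxide metabolism were compared as lists by protein name. Among 21 tested genes of oxalate and glyoxylate metabolism 1 rose by edgeR and 0 fell (0 by DESeq2, 0 by limma-voom, and 0 lower without adjustment at p under 0.05). The list median was a log2 fold change of 0.04, and without 0N+ABA replicate 2 the list had 2 rises. The gene that rose is named oxalate-CoA ligase, an enzyme known from Arabidopsis to start a route of oxalate breakdown that yields no hydrogen peroxide. TraesCS2A02G581600 was at 57.7, 82.1 and 70.9 TPM in 0N+ABA and at 130, 135 and 108 TPM in 2N+ABA (log2 fold change 0.88, SE 0.167, edgeR adjusted p = 0.037). No gene of the list rose by edgeR when any of the other 5 libraries was left out. The other tested oxalate-CoA ligase gene, TraesCS2B02G605800, had a log2 fold change of 0.26 (adjusted p = 0.368).

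Of 407 tested class III peroxidases, which use hydrogen peroxide in the wall, 58 rose and 6 fell (median 0.28), where 1.67% and 0.579% of all tested genes did. DESeq2 called 97 rises and 13 falls. With 1 library left out the rises ran from 16, without 2N+ABA replicate 1, to 129, without 0N+ABA replicate 2, and the falls from 0 to 33 in the same 2 fits. Ascorbate peroxidases, which remove it inside the cell, gave 1 rise and 0 falls by edgeR among 21 genes (0 falls by DESeq2 and limma-voom, and 7 genes higher and 0 lower without adjustment). DESeq2 called 2 rises, limma on log2(TPM + 1) called 0, and edgeR called 0 with any library other than 0N+ABA replicate 2 left out. By edgeR, 0 of 14 superoxide dismutases, 0 of 9 catalases, 0 of 37 respiratory burst oxidases, 0 of 20 polyamine and amine oxidases, 0 of 19 L-ascorbate oxidases and 0 of 38 other cupin-fold proteins were called. Without adjustment, at p under 0.05, these lists held 0, 3, 1, 1, 0 and 1 genes that were higher and 2, 2, 2, 3, 5 and 4 that were lower. DESeq2 called 0, 1, 0, 1, 1 and 0 of them and limma-voom 0 in each list. The L-ascorbate oxidases had a median log2 fold change of -0.42 with 10 genes below 0 and 9 above, and 6 of them fell without 0N+ABA replicate 2.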

How the data were processed

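Per the file headers, the authors deposited 1 table holding, for every gene, estimated counts and TPM of the 6 libraries. The tools HISAT and Bowtie2 are named without roles, per the submitters' processing notes. For the counter, genome build and annotation the sources used here give no name. Libraries were poly(A)-selected and PCR-amplified, with no strand or molecular identifier recorded, per the labels' protocols. The upper limit given for a count of 0 thus covers counting error only. Another 22 value columns, 2 of them averages named for groups without ABA, were not used. Chromosomes come from the gene ID, because 0 IDs matched the reference gene table, and no sequences are given.

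Estimated counts, rounded to whole numbers, went into edgeR (version 4.0.16, under R 4.3.3; filterByExpr, TMM scaling, glmQLFit, glmQLFTest; no covariate; all 6 libraries). The 53862 genes kept held 99.61% of the counts. Standard errors derive from the F statistic. The steps were checked on simulated counts that gave every gene the same dispersion and had no outlying library and no reads shared among copies. That check therefore does not cover uneven libraries or similar copies. Replicate numbers in the titles were not used as pairs, since deviations of same-numbered libraries correlated at 0.076, -0.229 and -0.217.

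The members and lists were chosen with earlier results of these data known. Genes were named by a rule for each group: all that passed the test, the 5 with the highest mean TPM, and the 3 with the largest log2 fold change among tested genes of at least 1 CPM that did not pass. Arrays and protein names were described as units, and genes named for a call under another setting were chosen after their values were seen. Alternatives were DESeq2 1.42.0, limma-voom and limma on log2(TPM + 1) (limma 3.58.1), RLE size factors, no filter on low counts, a replicate block, summed copies and leaving out each library.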

Additional observations from a re-analysis of the deposited data

How the results depend on the processing

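By setting, 1210 genes passed over the whole table and 2262 by DESeq2, 723 with the replicate block, and 283 to 4607 with 1 library left out. The 3 germin-like proteins that rose became 0 with the replicate block and 0 by limma on log2(TPM + 1), which called 1 fall in place of 0, and 0 to 10 rose and 0 to 10 fell with 1 library left out. The 3 oxalate oxidases that fell were 5 by DESeq2, 2 with the replicate block and 2 to 3 with 1 library left out, and the 0 that rose were 0 to 1. With the replicate block, class III peroxidases had 32 rises and 2 falls, and the lists of oxalate metabolism and of ascorbate peroxidases had 0 rises each. The replicate numbers do not mark known pairs, and no library correlated best with the library of its own number. Leaving out 1 library gave medians of -0.29 to 0.11 for germin-like proteins and -0.55 to -0.25 for oxalate oxidases, and log2 ratios of summed TPM of -0.26 to 0.00 and -0.58 to -0.35. The cause was not tested. Among named genes that did not pass the test, the log2 fold change changed sign in 6. With 1 library left out it ran from -0.08 to 0.05 in TraesCS5D02G054300, from -3.31 to 0.50 in TraesCS5A02G544200, from -2.80 to 0.36 in TraesCSU02G238600, from -0.24 to 0.06 in TraesCS4D02G031700 and from -0.31 to 0.00 in TraesCS4D02G031800. With copies summed it was 0.18 for TraesCS5D02G054300 and -0.19 for TraesCS5A02G545400.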
